A study of Homo sapiens with 12 samples.

Results

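Luminal, basal and neuroendocrine lineage markers were examined in LNCaPabl-Enza and LNCaPabl-Abi, both labelled as epithelial prostate cancer cell lines. The set lists 32 genes, and 27 of them had a named row among the 17687 genes of the deposited table. These were 9 of 9 luminal markers, 5 of 8 basal markers, 12 of 14 neuroendocrine markers and REST, a repressor of neuronal genes. KRT15, TP63, LAMB3, NEUROD1 and PCSK1 are not analysed here. Total RNA was hybridised to 12 single-colour Affymetrix arrays in 4 groups of 3. Enza_Dex and Abi_Dex received 100 nM dexamethasone, a synthetic glucocorticoid, for 24 h, and Enza_Ctrl and Abi_Ctrl received the solvent DMSO for the same time. The labels do not spell out what Enza and Abi stand for, nor the drug exposure of either line before the experiment. Growth conditions are given for LNCaP, an established androgen-responsive prostate cancer line.

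Prostate epithelium holds luminal secretory cells, basal cells and rare neuroendocrine cells. Luminal cells are recognised by the simple-epithelium keratins KRT8, KRT18 and KRT19, by the adhesion proteins CDH1 and EPCAM and by claudins, the strands of tight junctions. Basal cells carry the stratified-epithelium keratins KRT5 and KRT14 and the hemidesmosome proteins ITGA6, ITGB4 and DST, which anchor the cell to the basement membrane. Neuroendocrine cells store granins such as CHGA, CHGB, SCG2 and SCG3 in dense-core granules and share synaptic proteins with neurons. REST binds a bipartite DNA element called RE1 near many neuronal genes and keeps them silent in other cells. Prostate adenocarcinoma is mostly luminal, and loss of that identity under prolonged therapy is a known route to neuroendocrine disease.

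Promoter windows of RefSeq (GRCh38.p14, 250 bases before to 50 bases after each start site) were found for 15 of the 27 markers, 22 windows in all. They were searched on both strands for TGTTCT, the hexamer that glucocorticoid and androgen receptors recognise, and for the letters of the RE1 element. TGTTCT stood in windows of CD24, KRT5 and ITGA6, and in 14.8% of all 35116 windows. The palindrome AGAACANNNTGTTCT stood in no window of a marker and in 0.00285% of all windows. SCG3 was the only marker with TTCAGCACC, the left part of RE1, which 0.376% of all windows held. Its window also held GGACAG, the right part, which is far more frequent and stood in 20.5% of windows. The parts of SCG3 lay 8 bases apart, a spacing that was searched after this window had been read and that 0.00854% of windows shared. The spacing of 2 bases, TTCAGCACCNNGGACAG, was found in 0.0142% of windows and in none of a marker. The windows of SCG3, CD24 and KRT5 are shown because REST with SCG3, CD24 between the lines, and KRT5 among the basal keratins recur below. Capitals mark the matched letters, and a match is no evidence of binding.
SCG3, chr15:51681253-51681552, plus strand: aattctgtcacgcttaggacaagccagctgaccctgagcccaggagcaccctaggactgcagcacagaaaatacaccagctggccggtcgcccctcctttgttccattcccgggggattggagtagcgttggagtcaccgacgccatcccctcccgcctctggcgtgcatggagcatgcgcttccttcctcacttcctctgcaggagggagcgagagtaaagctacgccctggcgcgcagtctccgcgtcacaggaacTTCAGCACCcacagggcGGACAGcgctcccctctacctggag
CD24, chr6:106975416-106975715, minus strand, the second of 3 windows: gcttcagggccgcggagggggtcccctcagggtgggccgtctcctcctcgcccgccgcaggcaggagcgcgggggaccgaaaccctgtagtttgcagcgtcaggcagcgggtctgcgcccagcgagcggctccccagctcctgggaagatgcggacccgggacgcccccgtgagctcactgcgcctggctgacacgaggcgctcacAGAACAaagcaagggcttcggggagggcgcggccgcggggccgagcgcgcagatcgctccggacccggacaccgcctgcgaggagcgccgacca
KRT5, chr12:52520345-52520644, minus strand: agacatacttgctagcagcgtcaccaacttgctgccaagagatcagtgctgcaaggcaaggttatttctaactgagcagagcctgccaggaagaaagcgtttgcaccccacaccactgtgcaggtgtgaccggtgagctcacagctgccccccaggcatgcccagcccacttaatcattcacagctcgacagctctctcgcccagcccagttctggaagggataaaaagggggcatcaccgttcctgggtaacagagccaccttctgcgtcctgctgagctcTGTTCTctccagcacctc
In SCG3 the matches ran from base 9 to 17 and from 26 to 31 after the start site. In CD24 the match, written AGAACA on this strand, ran from base -44 to -39, and in KRT5 from base 33 to 38.

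Enza_Ctrl replicate 2 was unlike the remaining 11 arrays. The median of its Pearson correlations with them was 0.855, and the corresponding medians of the 11 ran between 0.986 and 0.990. Of the 23 background control rows, which carry probes of graded GC content that match no transcript, those of GC counts 8 to 18 read 4.004 to 5.88 on that array. They read 2.42 to 3.69 on the other 11. Counts of called markers below are therefore given with 12 arrays and again without that array. Counts above background are given with 12 arrays only. Over all genes, the residual SD had a median of 0.43 when it was kept and 0.26 when it was dropped, on the deposited log2 scale.

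Both lines carried an epithelial profile that included the luminal keratins KRT8 and KRT18. A marker was taken as above background on an array where its value exceeded the 95th percentile of the background control rows there, which was 6.46 to 6.70 over 11 arrays and 6.67 on Enza_Ctrl replicate 2. KRT8, KRT18, CDH1, EPCAM, CLDN4 and CLDN7 were above it on all 12 arrays, as were the basal-associated genes ITGA6 and DST, and REST. These 9 of 27 markers compare with 38.0% of all genes, and 40.5% of all genes were above background on no array. KRT19 was above background on 8 arrays, 4 of 6 in each line. CD24 passed on 3 of 6 arrays in LNCaPabl-Enza and on 6 of 6 in LNCaPabl-Abi.

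Most basal and neuroendocrine markers were below this threshold. The other 3 measured basal markers, KRT5, KRT14 and ITGB4, were above it on no array, as was CLDN3 among the luminal markers. Of 12 neuroendocrine markers, 10 were above background on no array, CHGA and SYP among them. NCAM1, a neural cell adhesion molecule, passed on 2 arrays, both of LNCaPabl-Abi. ENO2, the neuron-associated enolase, passed on 1 array of LNCaPabl-Abi. With the highest background row as the threshold, no neuroendocrine marker passed on any array, and 6 of 9 luminal markers still passed on all 12. With the median background row as a laxer threshold, 11 of 12 neuroendocrine markers passed on some arrays and none on all 12. SYP and ENO2 then passed on 11 arrays, INSM1 on 10, CHGA on 1 and ITGB4 on all 12.

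**Figure D1:**
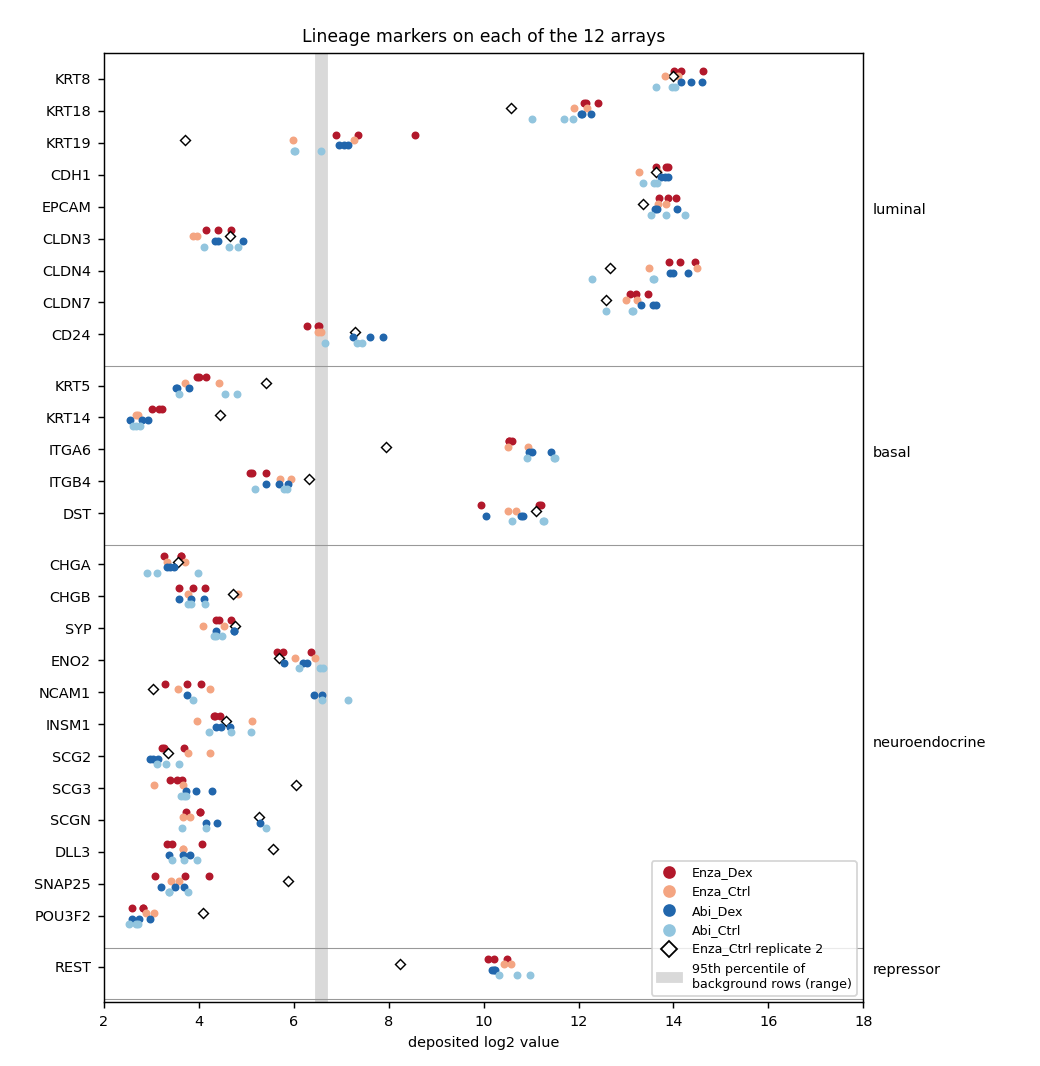
Deposited log2 value (horizontal axis) of each of the 27 markers (rows, by lineage) on each of the 12 arrays, coloured by group, with Enza_Ctrl replicate 2 as open diamonds and the range of the background threshold over the arrays shown for comparison. KRT8, KRT18, CDH1, EPCAM, CLDN4, CLDN7, ITGA6, DST and REST lie to the right of the threshold on every array, and 10 of 12 neuroendocrine markers to its left.

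Wider gene lists of the same lineages gave a like order. Of 21 measured further epithelial junction and luminal genes, 10 were above background on all 12 arrays, and of 16 genes listed as further basal 4. Those 4 were KRT16, ITGB1, JAG2 and MME, and MME is not particular to basal cells. KRT16, a keratin of that list, read 6.81 to 7.50 over the 12 arrays, not far above the threshold. Of 26 further neuroendocrine genes, 4 were above background on all 12 arrays, namely PCSK1N, CPE, RAB3A and STX1A, which serve peptide processing and vesicle fusion. Among 13 genes of REST cofactors and regulators, 11 were above background on all 12 arrays. Only Enza_Ctrl replicate 2 kept DSP, ELF3, PLEC, RAB3B and BTRC of these lists from passing on all 12. RAB3B missed narrowly there, at 6.669 against a threshold of 6.672. Markers of other cell types were mostly dim. Of 8 fibroblast genes 1 passed on all 12 arrays (COL1A2), and 0 of 7 immune and 0 of 6 endothelial genes did.

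On Enza_Ctrl replicate 2 several dim markers read high and several bright ones low, though not all: KRT8, CDH1 and DST lay within the range of the other arrays, and NCAM1 was at its lowest there. The array mean over the 12 neuroendocrine markers was 4.71 there, 3.86 to 4.02 on the other LNCaPabl-Enza arrays and 3.99 to 4.34 on the LNCaPabl-Abi arrays. SCG3 read 6.04, SNAP25 5.88, DLL3 5.56 and SCGN 5.27 on it, all under the background threshold of 6.67. The mean over the fibroblast genes was 5.87 on this array, 4.21 to 4.50 on the other LNCaPabl-Enza arrays and 4.38 to 4.59 on those of LNCaPabl-Abi. REST read 8.23, against 10.10 to 10.57 on the other LNCaPabl-Enza arrays.

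Dexamethasone in LNCaPabl-Enza left the luminal markers without a called change. In the lists that follow, values are deposited log2 levels in order of replicate number, and differences are dexamethasone minus DMSO with the SE of limma. KRT8 measured 14.16, 14.63 and 14.02 in Enza_Dex, against 14.10, 13.98 and 13.81 in Enza_Ctrl. Its partner KRT18 measured 12.16, 12.41 and 12.11 in Enza_Dex, against 12.19, 10.58 and 11.90 in Enza_Ctrl. KRT19 measured 7.35, 8.55 and 6.89 in Enza_Dex, against 7.27, 3.71 and 5.99 in Enza_Ctrl. In all 3 keratins the groups overlapped, and the lowest KRT18 and KRT19 values came from Enza_Ctrl replicate 2. KRT19 had a difference of 1.94 ± 0.72 with 12 arrays and of 0.96 ± 0.41 without that array, with adjusted p of 0.523 and 1.00. Its values in Enza_Ctrl replicates 2 and 3 were below background, which limits the size of the difference.

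The other luminal markers also overlapped between Enza_Dex and Enza_Ctrl. CDH1, the adherens junction cadherin, measured 13.62, 13.85 and 13.89 in Enza_Dex, against 13.68, 13.64 and 13.28 in Enza_Ctrl. CLDN4 measured 14.13, 14.46 and 13.90 in Enza_Dex, against 14.51, 12.66 and 13.49 in Enza_Ctrl. CLDN7 measured 13.09, 13.47 and 13.21 in Enza_Dex, against 13.24, 12.59 and 12.99 in Enza_Ctrl. The lowest CLDN4 and CLDN7 values were again on Enza_Ctrl replicate 2. EPCAM, an adhesion molecule of simple epithelia, measured 13.70, 13.88 and 14.06 in Enza_Dex, against 13.67, 13.35 and 13.84 in Enza_Ctrl. CLDN3, below background throughout, measured 4.15, 4.68 and 4.41 in Enza_Dex, against 3.87, 4.65 and 3.96 in Enza_Ctrl. CD24, a small surface glycoprotein of luminal cells, measured 6.50, 6.28 and 6.54 in Enza_Dex, against 6.52, 7.30 and 6.58 in Enza_Ctrl. CD24 was the single luminal marker with a negative difference, -0.36 ± 0.30 with 12 arrays and -0.11 ± 0.25 without Enza_Ctrl replicate 2.

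Over the 9 luminal markers, 8 had a positive difference in LNCaPabl-Enza with either set of arrays. Of all genes, 54.0% were positive with 12 arrays and 51.0% without Enza_Ctrl replicate 2. The luminal median was 0.30 with 12 arrays, beside 0.06 over all genes, and 0.18 without Enza_Ctrl replicate 2, beside 0.0049 over all genes. Over the 9229 genes above background on at least 3 arrays the median was 0.36 with 12 arrays, so the luminal median was no higher. Without that array it was 0.02 over 9189 such genes. With limma, 0 of 27 markers were called at an adjusted p under 0.05 with either set, and so were 0% of all genes. At an unadjusted p under 0.05 the counts were 2 of 27 markers with 12 arrays, where 3.96% of all genes passed, and 4 of 27 without that array, where 3% did.

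In LNCaPabl-Abi most luminal markers were higher on every dexamethasone array than on every DMSO array, without a call over all genes. KRT8 measured 14.38, 14.60 and 14.16 in Abi_Dex, against 13.97, 13.64 and 14.04 in Abi_Ctrl. KRT18 measured 12.27, 12.08 and 12.05 in Abi_Dex, against 11.88, 11.01 and 11.70 in Abi_Ctrl. KRT19 measured 7.14, 6.95 and 7.06 in Abi_Dex, against 6.58, 5.996 and 6.03 in Abi_Ctrl. None of the 3 keratins overlapped between the groups. CDH1 measured 13.88, 13.73 and 13.82 in Abi_Dex, against 13.65, 13.36 and 13.59 in Abi_Ctrl. CLDN4 measured 14.31, 13.99 and 13.92 in Abi_Dex, against 13.60, 12.28 and 13.56 in Abi_Ctrl. CLDN7 measured 13.57, 13.31 and 13.63 in Abi_Dex, against 13.13, 12.59 and 13.16 in Abi_Ctrl. These junction genes did not overlap either, and the lowest value of KRT8, KRT18, KRT19, CDH1, CLDN4 and CLDN7 was that of Abi_Ctrl replicate 2 in each case.

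The remaining 3 luminal markers overlapped in LNCaPabl-Abi. EPCAM measured 13.61, 13.65 and 14.07 in Abi_Dex, against 13.53, 13.84 and 14.24 in Abi_Ctrl. CLDN3 measured 4.93, 4.40 and 4.33 in Abi_Dex, against 4.83, 4.64 and 4.12 in Abi_Ctrl. CD24 measured 7.61, 7.24 and 7.88 in Abi_Dex, against 6.66, 7.34 and 7.43 in Abi_Ctrl. Of these, EPCAM alone had a negative difference, -0.09 ± 0.25.

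**Figure D2:**
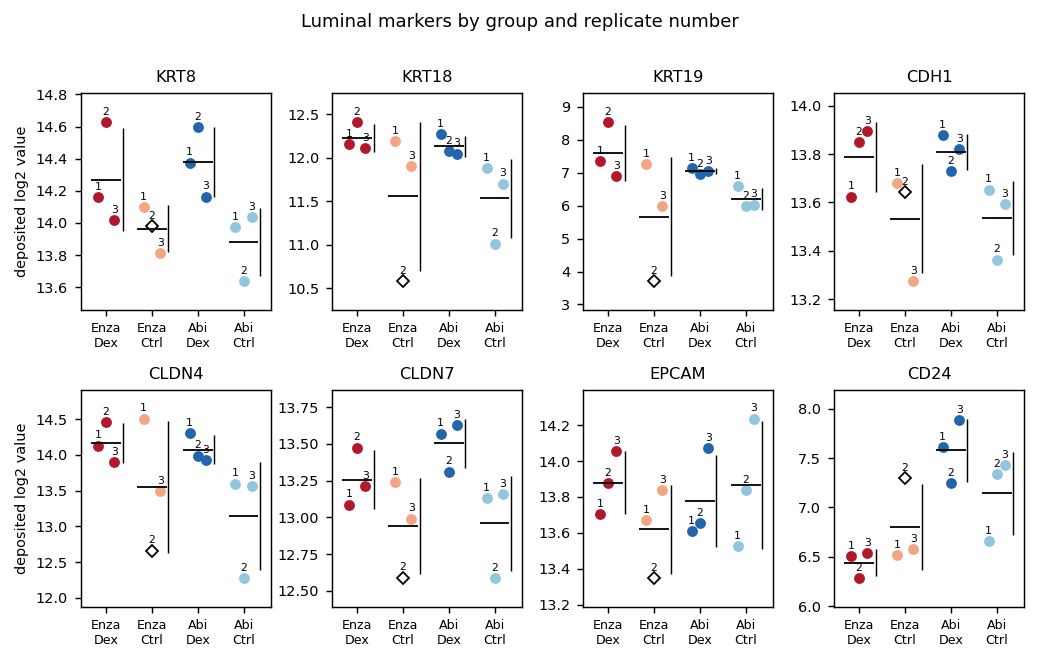
Deposited log2 values (vertical axes, each with its own range that does not start at 0) of 8 luminal markers in the 4 groups, with points numbered by replicate, a bar at the group mean, a vertical line for the mean ± SD (n = 3) and Enza_Ctrl replicate 2 as an open diamond. In LNCaPabl-Abi the dexamethasone points of KRT8, KRT18, KRT19, CDH1, CLDN4 and CLDN7 lie above all DMSO points.

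The count without overlap in LNCaPabl-Abi was thus 6 of 9 luminal markers, all higher after dexamethasone, where 6.26% of all genes were higher without overlap. With SCG3, a neuroendocrine marker below background, that makes 7 of 27. The difference was 0.93 ± 0.46 for CLDN4 (1.90-fold on the deposited scale), 0.84 ± 0.72 for KRT19, 0.60 ± 0.38 for KRT18 and 0.54 ± 0.25 for CLDN7 with 12 arrays. It was 0.50 ± 0.24 for KRT8 and 0.27 ± 0.20 for CDH1. None passed, with adjusted p of 1.00 for each. Because limma pools the spread of all groups, Enza_Ctrl replicate 2 also widens these errors, and without it the SE was 0.33 for CLDN4, 0.37 for KRT19, 0.22 for KRT18, 0.20 for CLDN7 and 0.21 for KRT8. The adjusted p was then between 0.583 for CLDN4 and 0.768 for CDH1 among these 6. KRT19 read 5.996 and 6.03 in Abi_Ctrl replicates 2 and 3, below the background thresholds of 6.55 and 6.57 there. The size of its difference is therefore limited by background.

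Over the 9 luminal markers the median difference in LNCaPabl-Abi was 0.50, with 8 positive, beside a median of 0.0023 over all genes. Without Abi_Ctrl replicate 2 the luminal median was 0.36, again with 8 positive, and the differences were 0.49 for CLDN4, 0.34 for KRT18 and 0.36 for CLDN7, each more than 1.5 times smaller. They were 0.74 for KRT19, 0.37 for KRT8 and 0.19 for CDH1. With limma, 0 of 27 markers were called in LNCaPabl-Abi, beside 0.0283% of all genes with 12 arrays and 0.141% without Enza_Ctrl replicate 2. Before adjustment, at p under 0.05, the counts were 0 of 27 with 12 arrays, where 1.36% of all genes passed, and 7 of 27 without that array, where 7.09% did. Of those 7 markers, 5 were luminal and the others were KRT5 and REST. The further epithelial genes did not lean one way: 11 of 21 had a positive difference, with a median of 0.02. GRHL2, a transcription factor of epithelial junction genes, had a difference of 0.48 ± 0.21 with 12 arrays (adjusted p = 1.00).

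**Figure D3:**
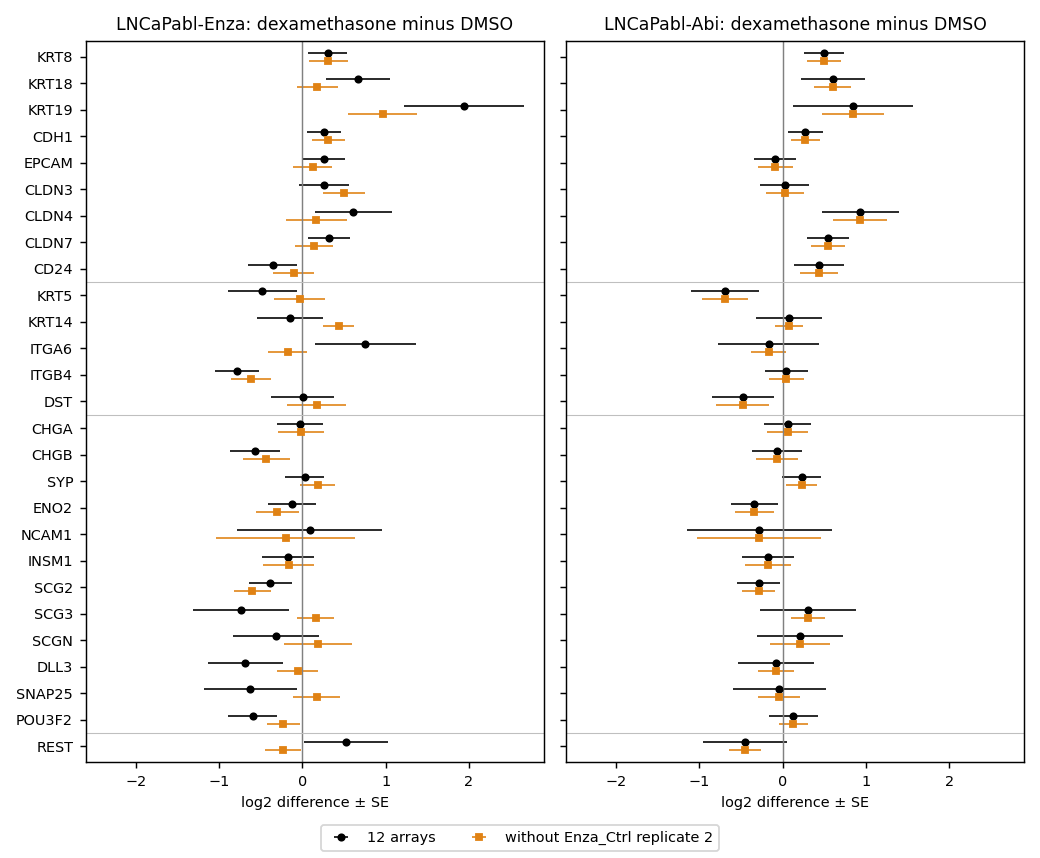
Dexamethasone minus DMSO difference in log2 units (horizontal axes, points with ± SE from limma) for each of the 27 markers in LNCaPabl-Enza (left) and LNCaPabl-Abi (right), with 12 arrays (black circles) and without Enza_Ctrl replicate 2 (orange squares). The luminal markers at the top lie mostly right of 0 in both lines, and in LNCaPabl-Enza the values of KRT19, ITGA6, SCG3, SNAP25 and REST shift when that array is left out.

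Among the basal markers, dexamethasone gave no called change in either line. ITGB4, the integrin subunit of hemidesmosomes, measured 5.07, 5.42 and 5.12 in Enza_Dex, against 5.95, 6.32 and 5.70 in Enza_Ctrl. These groups did not overlap, with a difference of -0.78 ± 0.26 and an adjusted p of 0.523, or -0.62 ± 0.24 and 1.00 without Enza_Ctrl replicate 2. ITGB4 was 1 of 2 markers lower without overlap in LNCaPabl-Enza, beside 4.77% of all genes, and no marker was higher without overlap there, beside 3.96%. Without Enza_Ctrl replicate 2, ITGB4, POU3F2 and SCG2 were lower without overlap, 3 of 27 beside 7.93% of all genes, and CLDN3 and KRT14 were higher, 2 of 27 beside 7.93%. In LNCaPabl-Abi ITGB4 measured 5.88, 5.70 and 5.41 in Abi_Dex, against 5.87, 5.19 and 5.80 in Abi_Ctrl, and these overlapped. All of these levels were below background.

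KRT5 and KRT14, the basal keratins of the marker set, were dim throughout, unlike KRT16 of the wider list. KRT5 measured 3.997, 3.97 and 4.14 in Enza_Dex, against 4.43, 5.41 and 3.71 in Enza_Ctrl. In LNCaPabl-Abi it measured 3.55, 3.52 and 3.80 in Abi_Dex, against 4.55, 4.80 and 3.58 in Abi_Ctrl. Both pairs of groups overlapped. The difference of KRT5 in LNCaPabl-Abi was -0.69 ± 0.41 with 12 arrays and -0.69 ± 0.27 without Enza_Ctrl replicate 2 (adjusted p = 1.00 and 0.642). Without Abi_Ctrl replicate 2 it was -0.45. KRT14 measured 3.23, 3.01 and 3.16 in Enza_Dex, against 2.67, 4.45 and 2.73 in Enza_Ctrl. It measured 2.54, 2.81 and 2.92 in Abi_Dex, against 2.68, 2.76 and 2.60 in Abi_Ctrl. The high KRT14 value in Enza_Ctrl was that of replicate 2, and without it the difference in LNCaPabl-Enza was 0.43 ± 0.19, against -0.15 ± 0.40 with it.

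ITGA6 and DST, the basal-associated genes above background, were uneven on Enza_Ctrl replicate 2 or between replicates. ITGA6, the laminin-binding integrin subunit, measured 10.60, 10.53 and 10.54 in Enza_Dex, against 10.52, 7.93 and 10.94 in Enza_Ctrl. In LNCaPabl-Abi it measured 11.02, 10.95 and 11.43 in Abi_Dex, against 10.91, 11.48 and 11.51 in Abi_Ctrl. Its difference in LNCaPabl-Enza was 0.75 ± 0.61 with 12 arrays and -0.18 ± 0.23 without Enza_Ctrl replicate 2. DST, a plakin that links keratin filaments to hemidesmosomes, measured 11.20, 11.17 and 9.94 in Enza_Dex, against 10.68, 11.10 and 10.51 in Enza_Ctrl. It measured 10.79, 10.82 and 10.06 in Abi_Dex, against 11.25, 11.26 and 10.60 in Abi_Ctrl. In each of the 4 groups replicate 3 had the lowest DST value. In LNCaPabl-Abi each Abi_Dex value of DST lay below the Abi_Ctrl value of the same number, though the groups overlapped. In LNCaPabl-Enza only replicate 3 was lower with dexamethasone. A pairing by number was not tested for DST.

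No neuroendocrine marker was called after dexamethasone, and none was above the background threshold on any dexamethasone array. CHGA, the granule protein most used to recognise neuroendocrine cells, measured 3.63, 3.62 and 3.27 in Enza_Dex, against 3.72, 3.56 and 3.33 in Enza_Ctrl. In LNCaPabl-Abi it measured 3.47, 3.40 and 3.32 in Abi_Dex, against 3.98, 2.91 and 3.12 in Abi_Ctrl. The CHGA groups overlapped in both lines. SYP, a synaptic vesicle protein, measured 4.42, 4.37 and 4.68 in Enza_Dex, against 4.09, 4.77 and 4.53 in Enza_Ctrl. In LNCaPabl-Abi it measured 4.74, 4.36 and 4.74 in Abi_Dex, against 4.31, 4.36 and 4.48 in Abi_Ctrl. SYP overlapped between the groups as well, with differences of 0.03 ± 0.23 in LNCaPabl-Enza and 0.23 ± 0.23 in LNCaPabl-Abi.

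Of the other granins, CHGB measured 3.88, 4.13 and 3.58 in Enza_Dex, against 4.82, 4.72 and 3.78 in Enza_Ctrl. It measured 3.58, 4.11 and 3.84 in Abi_Dex, against 3.76, 3.84 and 4.14 in Abi_Ctrl. CHGB overlapped in both lines. SCG2 measured 3.23, 3.68 and 3.27 in Enza_Dex, against 4.23, 3.35 and 3.76 in Enza_Ctrl. It measured 3.04, 3.14 and 2.96 in Abi_Dex, against 3.13, 3.58 and 3.30 in Abi_Ctrl. SCG2 differed by -0.39 ± 0.26 in LNCaPabl-Enza with 12 arrays and by -0.60 ± 0.22 without Enza_Ctrl replicate 2 (adjusted p = 0.523 and 1.00). SCG3, whose window carries the RE1 letters shown above, measured 3.39, 3.53 and 3.64 in Enza_Dex, against 3.05, 6.04 and 3.67 in Enza_Ctrl. It measured 3.72, 4.27 and 3.95 in Abi_Dex, against 3.72, 3.63 and 3.68 in Abi_Ctrl. In LNCaPabl-Abi SCG3 was the 1 neuroendocrine marker higher without overlap, by 0.30 ± 0.58 with 12 arrays and by 0.30 ± 0.20 without Enza_Ctrl replicate 2 (adjusted p = 1.00 and 0.773). The lack of overlap rested on 3.724 in Abi_Dex replicate 1 against 3.720 in Abi_Ctrl replicate 1. All SCG3 values were below background, and 6.26% of all genes were higher without overlap there.

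POU3F2 and DLL3 were highest on Enza_Ctrl replicate 2. POU3F2, a neural transcription factor, measured 2.83, 2.83 and 2.58 in Enza_Dex, against 2.89, 4.08 and 3.06 in Enza_Ctrl. It measured 2.59, 2.73 and 2.97 in Abi_Dex, against 2.71, 2.68 and 2.53 in Abi_Ctrl. POU3F2 was the other marker lower without overlap in LNCaPabl-Enza, by -0.60 ± 0.29 with 12 arrays and -0.23 ± 0.19 without that array. DLL3, an inhibitory Notch ligand, measured 3.43, 4.07 and 3.34 in Enza_Dex, against 3.67, 5.56 and 3.67 in Enza_Ctrl. It measured 3.81, 3.66 and 3.38 in Abi_Dex, against 3.68, 3.96 and 3.44 in Abi_Ctrl. Both DLL3 pairs overlapped. ENO2 measured 5.64, 6.37 and 5.78 in Enza_Dex, against 6.45, 5.69 and 6.02 in Enza_Ctrl. It measured 6.20, 6.27 and 5.80 in Abi_Dex, against 6.62, 6.12 and 6.55 in Abi_Ctrl, again with overlap. INSM1, a zinc-finger factor of endocrine differentiation, ranged from 3.95 to 5.12 over the 12 arrays, and SNAP25, a vesicle fusion protein, from 3.07 to 5.88.

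As a list, 10 of 12 neuroendocrine markers had a negative difference in LNCaPabl-Enza with 12 arrays, with a median of -0.35. Without Enza_Ctrl replicate 2 the count was 8 of 12 and the median -0.11. The high readings of several dim markers on that array are given above. In LNCaPabl-Abi 7 of 12 were negative, with a median of -0.05.

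REST measured 10.49, 10.21 and 10.10 in Enza_Dex, against 10.42, 8.23 and 10.57 in Enza_Ctrl. Its groups overlapped in LNCaPabl-Enza, and the sign of its difference rested on 1 array: 0.53 ± 0.50 with 12 arrays and -0.23 ± 0.22 without Enza_Ctrl replicate 2. In LNCaPabl-Abi REST measured 10.18, 10.24 and 10.22 in Abi_Dex, against 10.32, 10.97 and 10.70 in Abi_Ctrl. Here the groups did not overlap and REST was lower after dexamethasone by -0.45 ± 0.50 with 12 arrays and -0.45 ± 0.19 without Enza_Ctrl replicate 2, with adjusted p of 1.00 and 0.683. Without Abi_Ctrl replicate 2 it was -0.30. REST was the 1 marker of 27 that was lower without overlap in LNCaPabl-Abi, beside 6.01% of all genes.

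The difference between the responses, LNCaPabl-Enza minus LNCaPabl-Abi, asks whether dexamethasone moved a marker more in one line. With limma 0 of 27 markers were called, as were 0% of all genes, with either set of arrays. Before adjustment, at p under 0.05, the count was 1 of 27 with 12 arrays, where 1.5% of all genes passed, and 0 of 27 without that array, where 3.2% did. The marker that passed was ITGB4, at -0.83 ± 0.37 (adjusted p = 0.793), or -0.66 ± 0.32 (adjusted p = 0.999) without that array. CD24 had -0.79 ± 0.42 with 12 arrays and -0.54 ± 0.34 without it. Of the 9 luminal markers 4 had a positive value, with a median of -0.02 with 12 arrays and -0.18 without it. A p that misses the threshold does not show that both lines respond alike. For CLDN4, for example, the value was -0.32 ± 0.65 with 12 arrays, an error larger than its difference in LNCaPabl-Enza.

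Between the DMSO-treated lines no marker was called. The count with limma was 0 of 27, beside 0.266% of all genes with 12 arrays and 1.29% without Enza_Ctrl replicate 2. Before adjustment, at p under 0.05, it was 3 of 27 with 12 arrays, where 11.3% of all genes passed, and 6 of 27 without that array, where 11.1% did. With 12 arrays 1 marker, POU3F2, was higher in Enza_Ctrl without overlap, beside 5.95% of all genes, and none was lower, beside 8.22%. Without Enza_Ctrl replicate 2, KRT18, SCG2 and POU3F2 were higher in Enza_Ctrl without overlap, beside 11.5% of all genes. CLDN3 and CD24 were then lower, beside 12.5%. The difference of CD24 was -0.34 ± 0.30 with 12 arrays and -0.59 ± 0.25 without that array, where it had an adjusted p of 0.368. That of SCG2 was 0.66 ± 0.22 without it (adjusted p = 0.215).

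NCAM1 differed between replicates of LNCaPabl-Abi more than between treatments. It measured 3.75, 3.28 and 4.04 in Enza_Dex and 6.59, 6.42 and 3.75 in Abi_Dex. With DMSO it measured 3.56, 3.03 and 4.23 in Enza_Ctrl and 7.15, 6.59 and 3.87 in Abi_Ctrl. Replicates 1 and 2 of LNCaPabl-Abi read higher with either treatment, and replicate 3 lay in the range of LNCaPabl-Enza. Only Abi_Ctrl replicates 1 and 2 exceeded the background threshold, which was 6.58 and 6.55 on them. The size of a difference between the lines is therefore limited by background. The difference between the DMSO-treated lines was -2.27 ± 0.87 with 12 arrays and -1.98 ± 0.83 without Enza_Ctrl replicate 2 (adjusted p = 0.432 and 0.367). SCGN, a calcium-binding protein of endocrine cells, measured 4.02, 4.02 and 3.74 in Enza_Dex and 4.16, 4.38 and 5.28 in Abi_Dex. With DMSO it measured 3.81, 5.27 and 3.66 in Enza_Ctrl and 4.15, 3.64 and 5.40 in Abi_Ctrl. Replicate 3 was the highest LNCaPabl-Abi array for SCGN under both treatments, though below background.

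Between the dexamethasone-treated lines CD24 was the 1 marker called. It missed the threshold with the 12 arrays weighted equally, and passed without Enza_Ctrl replicate 2, with array weights and on these 2 groups alone. All 3 Enza_Dex arrays, at 6.28 to 6.54, were lower than all 3 Abi_Dex arrays, at 7.24 to 7.88, and the means were 6.44 ± 0.14 and 7.58 ± 0.32 (SD, n = 3 each). The difference was -1.14 ± 0.30 with 12 arrays (adjusted p = 0.275) and -1.14 ± 0.22 without that array (adjusted p = 0.0123). Enza_Ctrl replicate 2 is in neither group, so leaving it out lowers the pooled spread and not the difference. Fitted on these 2 groups alone, the adjusted p was 0.00976, and with array weights on all 12 arrays 0.00255. CD24 was above background on all 3 Abi_Dex arrays and on 1 of 3 Enza_Dex arrays, so the size of the difference is limited by background in Enza_Dex. CD24, like KRT8 and KRT18, has near-identical pseudogene copies, and the probes of the array may not tell them apart.

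The share of markers called between the dexamethasone-treated lines was 0 of 27 with 12 arrays, beside 0.277% of all genes, and 1 of 27 without Enza_Ctrl replicate 2, beside 2.28%. At an unadjusted p under 0.05 it was 1 of 27 with 12 arrays, where 4.14% of all genes passed, and 6 of 27 without that array, where 11.5% did. Without overlap, KRT5, KRT14 and SCG2 were higher in Enza_Dex, which is 3 of 27 beside 9.43% of all genes. CD24, ITGA6, SCG3 and SCGN were lower, which is 4 of 27 beside 10.7%. Both shares are near those of all genes. ITGA6, the brightest of these, differed by -0.58 ± 0.61 with 12 arrays and -0.58 ± 0.21 without that array (adjusted p = 1.00 and 0.241). In bulk RNA a smaller share of cells that express a gene and less RNA per cell cannot be told apart.

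Genes of the wider lineage lists were called between the lines. EGFR, the growth factor receptor typical of basal cells, measured 7.45, 7.54 and 7.14 in Enza_Dex and 5.36, 5.02 and 5.69 in Abi_Dex. EGFR was above background on all 6 LNCaPabl-Enza arrays and on none of LNCaPabl-Abi, so only a lower bound of its fold can be had. With each Abi_Dex array set at its background threshold, EGFR was at least 1.69-fold higher in Enza_Dex. This bound holds for that threshold only. The highest background row read 7.70 and 8.21 on Enza_Dex replicates 2 and 3, above EGFR. On the values as deposited it differed by 2.02 ± 0.31 with 12 arrays (adjusted p = 0.0230) and by 2.02 ± 0.26 without Enza_Ctrl replicate 2 (adjusted p = 0.000486). With DMSO it measured 7.30, 6.79 and 7.06 in Enza_Ctrl and 5.82, 4.73 and 5.53 in Abi_Ctrl. Set in the same way, it was at least 1.40-fold higher in Enza_Ctrl, where the highest background row read 7.82, 7.92 and 7.70, above EGFR on each array. As deposited it differed there by 1.69 ± 0.31 with 12 arrays (adjusted p = 0.0541) and by 1.82 ± 0.29 without that array (adjusted p = 0.00454). All 6 LNCaPabl-Enza arrays were above all 6 LNCaPabl-Abi arrays. The call between the dexamethasone-treated lines was lost when any 1 of the 6 arrays compared was left out, with adjusted p of 0.0524 to 0.151.

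Without Enza_Ctrl replicate 2, 3 further genes of these lists were called between the dexamethasone-treated lines, all lower in Enza_Dex. DSP, the desmosome plakin, measured 10.94, 11.09 and 11.23 in Enza_Dex and 12.24, 12.15 and 12.30 in Abi_Dex, a difference of -1.14 ± 0.25 (adjusted p = 0.0241). ITGA3, a laminin-binding integrin subunit, measured 4.85, 4.94 and 5.31 in Enza_Dex and 6.24, 5.87 and 5.81 in Abi_Dex (adjusted p = 0.0168). MME, a membrane peptidase also called CD10, measured 12.43, 12.29 and 12.74 in Enza_Dex and 13.65, 13.29 and 13.27 in Abi_Dex, a difference of -0.92 ± 0.22 (adjusted p = 0.0443). None of the 3 overlapped, and none passed with 12 arrays. ITGA3 was below background on all 6 of these arrays, and no size is given for it. Without that array, 1 of 21 further epithelial genes and 3 of 16 genes listed as further basal (EGFR, ITGA3 and MME) were called. Of 26 further neuroendocrine genes 0 were called without it, and of all genes 2.28%. MME is not particular to basal cells.

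**Figure D4:**
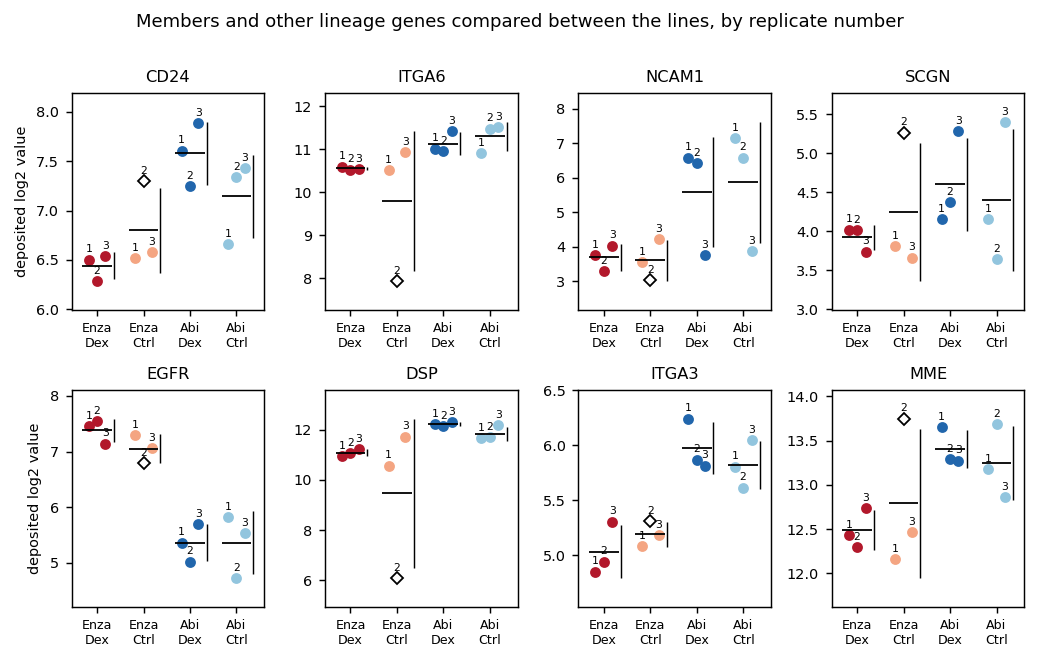
Deposited log2 values (vertical axes, each with its own range that does not start at 0) of markers and other lineage genes set between the lines, with points numbered by replicate in the 4 groups and Enza_Ctrl replicate 2 as an open diamond. CD24 is lower in Enza_Dex than in Abi_Dex, and EGFR is higher in all LNCaPabl-Enza arrays. NCAM1 reads higher in replicates 1 and 2 of both LNCaPabl-Abi groups than on the other arrays.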

How the data were processed

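The authors deposited log2 values for 12 single-colour Affymetrix arrays, 1 value per transcript cluster. RNA was prepared with the WT PLUS kit and a biotin label, per the labels, and RMA, limma and Affymetrix Expression Console are named, with no versions, per the submitters' processing notes. The deposited log2 values span 1.66 to 18.6, wide for RMA, so fold changes hold on that scale only. The annotation build is not given in the sources used here.

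Of 24351 rows, 17709 had 1 gene symbol, and the brightest row per symbol left 17687 genes. No marker had more than 1 row. Groups and replicate numbers came from the titles. Whether replicates were separate cultures is not in the labels, and the p-values cover only the spread among these arrays, in part possibly technical. The number of arrays limits the precision.

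The fit used lmFit and eBayes of limma 3.58.1 (R 4.3.3) with 4 group means and no filter. Adjusted p-values are Benjamini-Hochberg over all genes, with calls under 0.05. The fit was tested on simulated data. The markers, lists and tests were chosen with earlier results of these data known. Array values are given for KRT8, KRT18, KRT5, CHGA, SYP, REST, called markers and, per lineage and comparison, the 3 markers with the smallest p. Of other lists, called genes and the gene with the smallest p are named. KRT16, ITGB1, JAG2, PCSK1N, RAB3A, STX1A, COL1A2 and TRIM29 were named after their values were seen. Comparisons that share arrays are not independent. Arrays that share a replicate number were not treated as pairs.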

Additional observations from a re-analysis of the deposited data

How the results depend on the processing

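The counts of markers called were 0 in both responses, in their difference and between the DMSO-treated lines under every alternative run. Between the dexamethasone-treated lines the count was 0 with 12 arrays and 1 (CD24) with array weights, with these 2 groups alone, and without Enza_Ctrl replicate 2, alone, with the replicate block or with the filter on dim genes. Leaving out each array in turn gave 0 to 1. Counts of genes called moved more. Leaving out each array gave 0 to 25 in LNCaPabl-Abi, 0 without Abi_Ctrl replicate 2 and 25 without Enza_Ctrl replicate 2. It gave 0 to 1 in LNCaPabl-Enza, 11 to 228 between the DMSO-treated lines and 12 to 403 between the dexamethasone-treated lines. Array weights gave 37 in LNCaPabl-Abi, 252 between the DMSO-treated lines and 767 between the dexamethasone-treated lines. Fits on the 2 groups compared gave 22, 0 and 502 in that order. Without Enza_Ctrl replicate 2, the filter on dim genes gave 30, 221 and 421, and the replicate block 39, 303 and 540. With the replicate block and that array left out, the difference between the responses had 1. The replicate block within each line, added after seeing the data, gave 2 in LNCaPabl-Abi with 12 arrays. Without Enza_Ctrl replicate 2 it gave 47 in LNCaPabl-Abi, 1 in LNCaPabl-Enza and 1 for their difference. With 12 arrays and the replicate block, no marker was called in any comparison. Same-numbered arrays were not taken as pairs, since the labels give no block. Correlations of their deviations from group means were 0.014, 0.004 and 0.082 in LNCaPabl-Enza, against -0.065 to 0.056 for unlike numbers. Without replicate 2 they were 0.164 and -0.164, equal in size because 2 arrays per group remain. In LNCaPabl-Abi they were 0.137, 0.083 and 0.303, against -0.196 to 0.098 for unlike numbers. Between the dexamethasone-treated lines they were 0.069, 0.182 and 0.191, against -0.165 to 0.016 for unlike numbers. Between the DMSO-treated lines they were 0.01, 0.081 and 0.156, against -0.132 to 0.093. Same-numbered arrays thus tended to deviate together in LNCaPabl-Abi, most clearly in replicate 3, and less so between the dexamethasone-treated lines.

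REST in LNCaPabl-Enza ran from -0.23 to 0.94 over the omissions, with -0.23 without Enza_Ctrl replicate 2 (also with the filter), -0.17 with array weights, -0.28 with that array left out and the replicate block, and -0.20 with the block within the line. CD24 between the DMSO-treated lines was 0.034 after quantile normalization anew, and the cause was not tested. EGFR between the dexamethasone-treated lines missed the threshold when any of the 6 arrays of these groups was left out, with differences of 1.85 to 2.19 over all omissions. Taking the 95th percentile of 612 negative control rows as background, chosen after seeing the data, left 7 of 27 markers above it on all 12 arrays. That percentile was 9.61 on Enza_Ctrl replicate 2 and 6.91 to 7.36 on the other 11 arrays. ITGA6 and REST fell below it on Enza_Ctrl replicate 2 alone, at 7.93 and 8.23. The median background row left 11 markers above it on all 12 arrays. Few arrays and 1 deviating array limit what can be called. Differences printed for markers under background describe deposited values and are not measured changes.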

Other observations

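Genes outside the marker set showed a few further patterns. RAB3B, a vesicle GTPase, was lower in LNCaPabl-Enza than in LNCaPabl-Abi, by -0.98 ± 0.26 with dexamethasone and -1.03 ± 0.29 with DMSO without Enza_Ctrl replicate 2 (limma, adjusted p = 0.0723 and 0.128, neither passing). TJP1, a tight junction scaffold, measured 14.13, 13.81 and 13.57 in Enza_Dex and 13.14, 13.00 and 13.03 in Abi_Dex, a difference of 0.78 ± 0.25 with 12 arrays that did not pass (limma, adjusted p = 0.609). CD68, a lysosomal protein used as a macrophage marker, measured 7.65, 7.70 and 6.93 in Abi_Dex, against 6.54, 6.55 and 6.26 in Abi_Ctrl. CD68 was above background on all 3 Abi_Dex arrays and on no Abi_Ctrl array, at least 1.82-fold higher with Abi_Ctrl set at the threshold. The highest background row read 7.95, 8.03 and 7.69 on the Abi_Dex arrays, above CD68 on each. Abi_Dex and Abi_Ctrl did not overlap for CD68. Without Enza_Ctrl replicate 2 the deposited values differed by 0.98 ± 0.24 (limma, adjusted p = 0.254). No other immune gene of that list was higher without overlap there.

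S100A2, a calcium-binding protein of basal cells, was below background on every array but Enza_Ctrl replicate 2. It measured 3.97, 3.96 and 3.90 in Enza_Dex, against 4.27, 7.52 and 4.93 in Enza_Ctrl, and 4.36, 4.75 and 4.31 in Abi_Dex, against 3.62, 4.26 and 4.09 in Abi_Ctrl. The groups did not overlap in either line, lower with dexamethasone in LNCaPabl-Enza and higher in LNCaPabl-Abi. Apart from Enza_Ctrl replicate 2 these readings were below background and give no measured response. The 7.52 on that array lay under its highest background row, at 7.92. The difference between the responses was -1.14 ± 0.33 without Enza_Ctrl replicate 2 (limma, adjusted p = 0.999).

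TRIM29, a protein of basal epithelium, was like NCAM1 in being lowest in replicate 3 of both LNCaPabl-Abi groups. It measured 6.53, 6.79 and 5.26 in Abi_Dex, against 7.04, 6.14 and 5.17 in Abi_Ctrl. In LNCaPabl-Enza it measured 6.14, 5.74 and 5.38 in Enza_Dex, against 6.09, 4.78 and 5.50 in Enza_Ctrl. The pattern was noticed in these data and was not tested.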
